A study of Mus musculus with 11 samples.

Results

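Axon guidance and neural adhesion genes were measured in mouse neocortex at embryonic day 18 on 11 two-colour arrays. The families were taken by gene symbol: Eph receptors and ephrins, semaphorins with plexins and neuropilins, netrins with Dcc and Unc5, Slit and Robo, cadherins and protocadherins, contactins, Ncam, neuroligins and neurexins (Nrxn2 was left out), and Gap43. They came to 75 of the 6856 probes, for 70 of 6041 named genes. Each array compared total RNA of 1 biological replicate of a C57BL/6 null mutant, whose neurons the record calls silent at the synapse, with C57BL/6 wild-type RNA, read here as a common pool. Cy3 marked the null RNA in 6 hybridisations (arrays 1, 2, 6, 7, 8 and 10) and Cy5 in the other 5 (arrays 3, 4, 5, 9 and 11). The record names no restriction of the null to a cell type. For the wild-type RNA of arrays 1 and 6, the labels disagree on the age, with day 14 in one field and day 18 in another.

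Growing axons are steered by cues that attract or repel the growth cone, each read by a receptor of its own family: ephrins by Eph receptors, semaphorins by plexins and neuropilins, netrins by Dcc and Unc5 proteins, and Slits by Robo proteins. Cadherins, contactins and Ncam proteins hold neighbouring membranes together, and neurexins on the axon bind neuroligins across the synaptic cleft. In the late embryonic neocortex these families act while long-range axons are still extending and synapses are only beginning to form.

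All values are log2 ratios as deposited, read as null over wild type. This direction is likely, but the sources used here do not state it. It rests on Xist, made from the inactive X chromosome of females. Its ratio was -4.18 or lower on 6 arrays, some with each dye, and 0.0024 to 0.67 on 4 others, as a pool that holds females would give as the denominator. Kdm5d, on the Y chromosome, was at 0.65 or higher on 5 of the 6 arrays with low Xist and at -0.61 on the sixth, array 5. Base 2 is assumed. A ratio says nothing about how abundant a transcript was, so the presence of a marker cannot be read from these values. In whole tissue, fewer cells of a type and less RNA per cell cannot be told apart.

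Of the 75 probes, 67 (for 64 genes) had values on at least 8 arrays, with at least 3 in each dye orientation, and were tested with limma. The mean ratio was set against 0 with a dye term, and p-values were adjusted over all 5399 tested probes, with a threshold of 0.05. Errors are standard errors of this model, and n is the number of arrays. The 8 probes that were not tested were those of Efna5 (values on 3 arrays), Plxna1 (1), Ntn1 (4), Cdh1 (5), Cdh18 (5) and Cntnap1 (7), a probe of Pcdh7 (2) and a probe of Ephb4 (0 arrays).

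Arrays 3, 4 and 10 stood apart for some of these genes. On array 4 the values of the tested probes had an SD of 0.527, against 0.264 to 0.363 on the others, and it carried the fewest values (4822, against up to 6316). Guidance and adhesion probes had a median of -0.095 on array 3, of -0.050 on array 4 and of -0.13 on array 10. Over all probes the medians of these arrays were 0.021, -0.045 and 0.044, so that of array 4 was near its background. On the remaining 8 arrays the guidance and adhesion medians lay from -0.029 to 0.033. Values without these 3 arrays are given beside the results that they change. The 3 arrays were singled out after the values of these genes were seen. Calls made without them follow in part from that choice and are not independent support.

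Expression of 25 of the 67 probes differed between null and wild type: 16 fell and 9 rose. This is 37.3% of the probes, where 28.6% of all tested probes were called. The lower calls made up 23.9% (14% of all tested probes) and the higher calls 13.4% (14.7% of all tested probes). The share of higher calls is thus near the background, and that of lower calls is above it. This difference was not tested. With an exact sign-flip test in place of limma, 13 of the 67 probes (19.4%) were called, against 20.7% of all tested probes. The excess in the total of both directions was thus absent in that test. It gave 10 lower and 3 higher calls, and its share over all tested probes in each direction was not worked out. Of the 25 limma calls, the sign-flip test lost those of Efna3, Efnb2, Nrp1, Unc5c, Slit2, Cdh13, Cdh17, Cdh4, Cdh6, Pcdh7, Pcdha6 and Ncam2. The median ratio of the 67 probes was 0.0049, against -0.0051 over all tested probes. A ratio of at least 0.3 in size was found for 13 of the 67 probes (19.4%), against 10.3% of all tested probes. The lower calls were 13 to 18 when any single array was left out. The higher calls were less stable: 4 without array 11, 5 without array 5, 7 or 9, and 12 without array 4. In these runs with 1 array left out, 22.3% to 29.6% of all tested probes were called. Without arrays 3, 4 and 10 together, 21 probes were called higher and 17 lower, and the share over all tested probes also rose, to 34.4%. Without arrays 1 and 6, whose wild-type age is in doubt, 4 were called higher and 14 lower, and the share over all tested probes fell to 19.4%. The calls lost among the 25 were those of Efnb2, Nrp1, Robo1, Slit2, Cdh13, Cdh6 and Pcdha6.

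**Figure D1:**
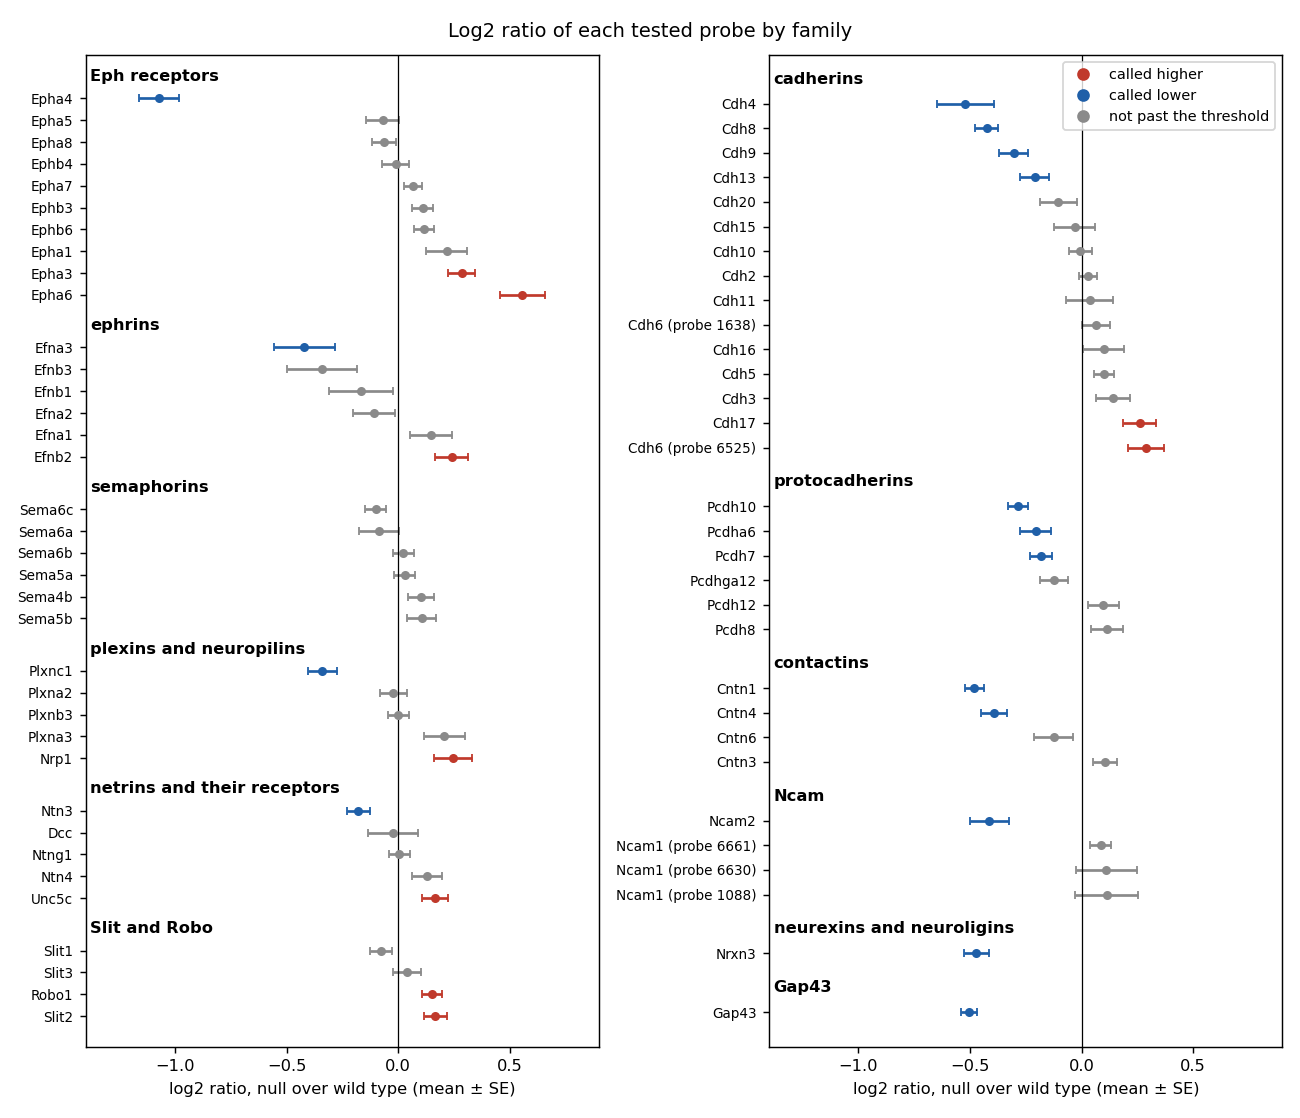
Log2 ratio (null over wild type, x axis) of each of the 67 tested probes, by family, as the mean and SE of the limma model; colours mark the 9 probes called higher, the 16 called lower and the 42 that did not pass. Epha4 at -1.07 and Epha6 at 0.56 are the extremes, and Cntn1, Cntn4, Nrxn3 and Gap43 lie between -0.50 and -0.39.

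Among the probes called, 9 had every measured array on the same side of 0, which is 9.09% over all tested probes and 13.4% here. The 8 lower ones were Epha4, Gap43, Cntn1, Nrxn3, Cdh8, Cntn4, Cdh9 and Pcdh10, and the higher one was Epha6. Of the 25 calls, those of Epha4, Gap43, Cntn1, Nrxn3, Cdh8 and Pcdh10 passed under every alternative that measured them.

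**Figure D2:**
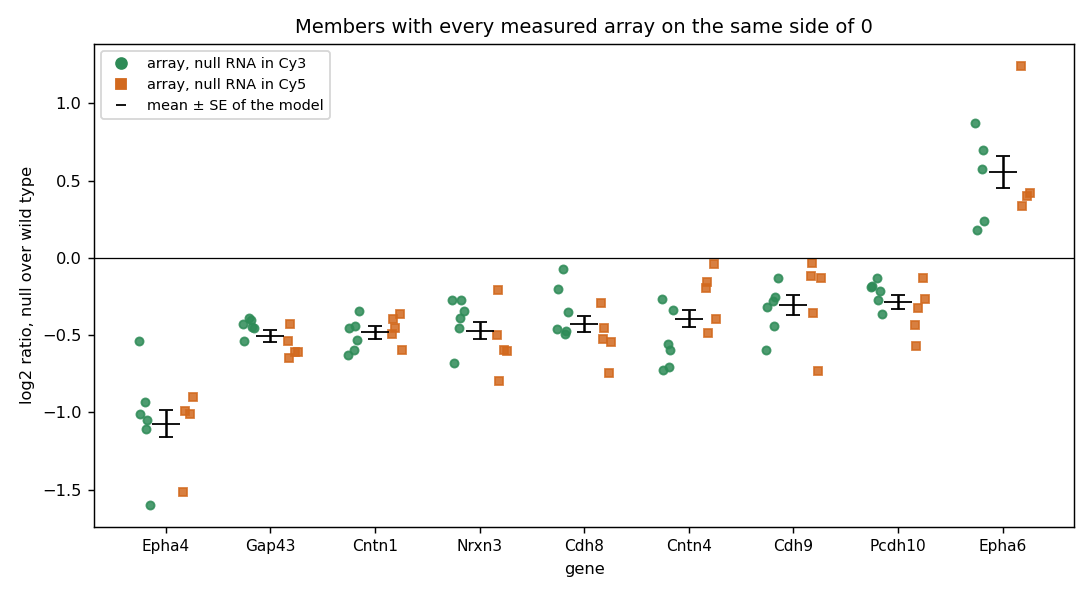
Log2 ratio (y axis) on each array for the 9 called genes (x axis) whose measured arrays all lie on the same side of 0; circles are arrays with null RNA in Cy3, squares those with Cy5, and bars the mean and SE of the model. Gap43 and Cntn1 lie within -0.65 to -0.34, whereas Epha4 spreads from -1.60 to -0.54 and Epha6 from 0.18 to 1.24.

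For 5 of these 9 genes the RefSeq table holds a single start, and the 250 bases before it are shown because these genes moved the same way on every array that measured them. The letters of short motifs were searched on both strands and are in capitals: TGACG, the core of the cAMP response element bound by the activity-regulated factor CREB; GGGCGG, the GC box; and TATAAA, the TATA box. The build is GRCm38.p6, and each run reads 5′ to 3′ along the gene.
Epha4, chr1:77515089-77515338, minus strand: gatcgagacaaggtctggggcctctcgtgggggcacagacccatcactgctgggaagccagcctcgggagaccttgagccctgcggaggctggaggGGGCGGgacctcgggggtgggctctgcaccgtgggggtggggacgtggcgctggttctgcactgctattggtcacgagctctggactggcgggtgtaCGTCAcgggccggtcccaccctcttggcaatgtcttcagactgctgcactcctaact
Epha6, chr16:60605532-60605781, minus strand: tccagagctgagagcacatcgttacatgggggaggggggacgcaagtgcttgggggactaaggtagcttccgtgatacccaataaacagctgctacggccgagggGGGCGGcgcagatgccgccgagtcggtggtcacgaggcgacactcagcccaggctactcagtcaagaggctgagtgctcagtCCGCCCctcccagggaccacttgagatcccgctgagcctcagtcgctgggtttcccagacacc
Cdh8, chr8:99416472-99416721, minus strand: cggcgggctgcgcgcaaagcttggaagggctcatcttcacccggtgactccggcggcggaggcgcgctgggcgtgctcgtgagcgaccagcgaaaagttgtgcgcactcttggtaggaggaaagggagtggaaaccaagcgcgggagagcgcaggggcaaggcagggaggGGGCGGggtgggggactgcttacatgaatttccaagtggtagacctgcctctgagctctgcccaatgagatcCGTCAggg
Cdh9, chr15:16728665-16728914, plus strand: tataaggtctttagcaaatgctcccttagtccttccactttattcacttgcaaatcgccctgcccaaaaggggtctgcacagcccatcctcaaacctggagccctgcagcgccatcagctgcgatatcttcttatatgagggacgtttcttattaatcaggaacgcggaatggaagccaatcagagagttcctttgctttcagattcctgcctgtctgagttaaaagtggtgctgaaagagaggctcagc
Pcdh10, chr3:45378148-45378397, plus strand: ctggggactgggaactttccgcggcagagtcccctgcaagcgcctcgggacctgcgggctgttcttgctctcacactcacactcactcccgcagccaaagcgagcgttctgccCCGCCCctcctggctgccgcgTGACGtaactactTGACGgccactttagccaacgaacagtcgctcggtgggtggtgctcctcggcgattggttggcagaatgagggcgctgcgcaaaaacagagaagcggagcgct
The core is present 1 time in the Epha4 and Cdh8 windows and 2 times in that of Pcdh10. It is not in the Cdh9 and Epha6 windows, and the Cdh9 window holds none of the letters searched; this says nothing about the factors. The core is in 17.8% of all 32851 such windows in the table, which include those of genes that do not code for protein, and in 9 of the 60 windows of 49 guidance and adhesion genes (15%). The full element, TGACGTCA, which holds the core on both strands, is in 1.55% of all windows and in 0 of the 60. The GC box is in 37 of the 60 windows (61.7%, against 32.7% of all), with 2 in that of Epha6, and the TATA box in 4 (6.67%, against 12.4%). The letters CG occur a median of 15 times in the guidance and adhesion windows, against 6 in all windows. The part of this base composition in the motif shares was not tested. Some genes have several, partly overlapping windows. A match is a description of letters and not a bound site.

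Among the Eph receptors, Epha4 was lower in the null and Epha3 and Epha6 were higher. Epha4, a receptor kinase that reads ephrins of both classes and repels axons, had ratios from -1.60 to -0.54 with a median of -1.01. Arrays 10 (-1.60) and 3 (-1.52) were the lowest, array 1 (-0.54) was the weakest, and no array reached 0. It fell by 1.07 ± 0.09 (n = 10, adjusted p = 2.5e-06), which is 2.10-fold and the 13th lowest ratio of the 5399 tested probes. The arrays of both dyes gave similar means, -1.04 with Cy3 and -1.10 with Cy5. Without arrays 3, 4 and 10 it was -0.95 (adjusted p = 4.45e-07).

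Epha6, a receptor of A-class ephrins, had ratios from 0.18 to 1.24 with a median of 0.42. It was highest on array 4 (1.24) and had no value on arrays 3 and 10. It rose by 0.56 ± 0.10 (n = 9, adjusted p = 0.0019), the 42nd highest ratio of all tested probes. Epha6 lay above 0 on every array that measured it, and Epha4 below 0. Epha3, which also reads A-class ephrins, rose by 0.28 ± 0.06 (n = 11, adjusted p = 0.0038). It was above 0.2 on 8 arrays, at 0.05 on array 10 and at or just below 0 on arrays 3 and 5.

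The other 7 tested Eph receptors did not pass. Their ratios lay between -0.070 (Epha5) and 0.22 (Epha1), with Epha8, Ephb4, Epha7, Ephb3 and Ephb6 in between. Epha1 had 0.22 ± 0.09 (n = 9, adjusted p = 0.099), and without array 3 it was called at 0.34 (adjusted p = 0.010), and without arrays 3, 4 and 10 at 0.37 (adjusted p = 0.0024). Epha5, at -0.070, was called at -0.19 without arrays 3, 4 and 10 (adjusted p = 0.036). Ephb3, at 0.11, was called without array 4, at 0.13 (adjusted p = 0.047). Both Ephb3 and Ephb6 were called at 0.15 without arrays 3, 4 and 10 (adjusted p of 0.035 and 0.036).

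The ephrins, ligands held on the cell surface, went both ways. Efnb2, a transmembrane ephrin of axons and blood vessels, rose by 0.24 ± 0.07 (n = 11, adjusted p = 0.025) and was higher on 10 of 11 arrays. Only array 4 was negative, at -0.37. The call of Efnb2 was lost without array 5, 6, 7, 9 or 11 (adjusted p from 0.051 to 0.063) and kept at 0.36 without arrays 3, 4 and 10 (adjusted p = 9.9e-05).

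Efna3, an ephrin with a lipid anchor, had ratios from -1.28 to 0.26 with a median of -0.33. Arrays 10 (-1.28), 3 (-1.13) and 5 (-0.70) were low, while arrays 1, 2 and 6 were positive. It fell by 0.42 ± 0.14 (n = 10, adjusted p = 0.036). This call was lost without array 3, 5, 7, 8 or 9 (adjusted p from 0.051 to 0.104), and without arrays 3, 4 and 10 the ratio was -0.23 (adjusted p = 0.036). The mean was -0.65 on the Cy5 arrays and -0.19 on the Cy3 arrays.

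Efnb3, the midline ligand of Epha4 in the corticospinal tract, had a mean ratio of -0.34 ± 0.16 (n = 11, adjusted p = 0.119). It ranged from -1.33 on array 5 to 0.90 on array 1. With limma on the Cy5 arrays alone Efnb3 was called at -0.84 (adjusted p = 0.029), and on the Cy3 arrays alone it had 0.16 (adjusted p = 0.623). Efnb1 had -0.17 ± 0.14, Efna2 -0.11 ± 0.09 and Efna1 0.15 ± 0.09, and none of them passed (adjusted p from 0.257 to 0.419). For the last 2, array 4 alone was far from the rest, at -1.25 for Efna2 and 1.21 for Efna1. Efna2 had 0.043 (adjusted p = 0.522) and Efna1 0.021 (adjusted p = 0.818) without arrays 3, 4 and 10.

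Efnb1, Efnb3 and Efna3 shared their pattern over arrays with Sema6a, Cdh4 and 2 of the 3 Ncam1 probes. These 7 probes, singled out after their values were seen, have at least 3 arrays at or below -0.4 and at least 3 above 0. Over all tested probes 4.87% have such values. Efnb1 lay at -1.14, -0.85 and -1.04 on arrays 3, 4 and 10, and at 0.60, 0.27, 0.60, 0.20 and 0.37 on arrays 1, 2, 6, 7 and 8. Efnb3 lay at -1.14, -1.25, -1.33 and -1.12 on arrays 3, 4, 5 and 10, and between 0.15 and 0.90 on arrays 1, 2, 6, 7 and 8. Both ephrins thus had large ratios of either sign. Without arrays 3, 4 and 10 Efnb1 had 0.12 (adjusted p = 0.237) and Efnb3 -0.097 (adjusted p = 0.547), so the sign of Efnb1 turned. Array 5 was low for Efna3, Efnb1, Efnb3 and Cdh4 but not for Ncam1.

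**Figure D3:**
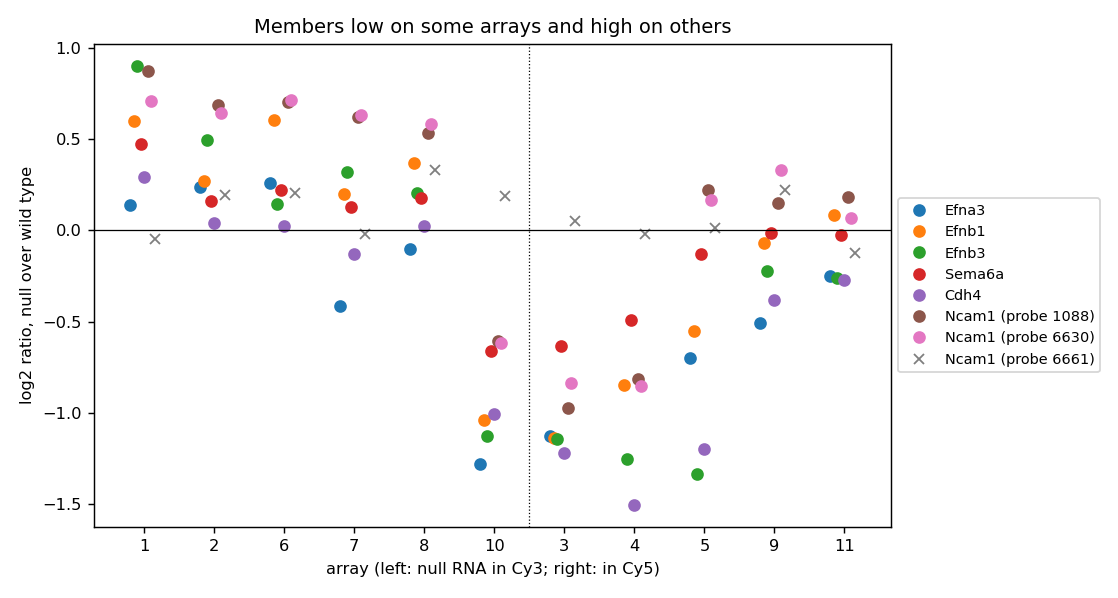
Log2 ratio (y axis) on each array (x axis, Cy3 arrays left of the dotted line and Cy5 arrays right of it) for the 7 probes with at least 3 arrays at or below -0.4 and at least 3 above 0, and for the third Ncam1 probe (crosses). The 7 probes are low on arrays 3, 4 (no value for Efna3) and 10, and 4 of them also on array 5, while the crosses stay between -0.13 and 0.33.

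Of the 4 low arrays, 3 carried the null RNA in Cy5. The dye term did not pass for any of the 67 probes with limma (0.0741% of all tested probes), although 19 had an unadjusted p below 0.05. The share of such unadjusted values over all tested probes was not worked out. The 7 probes were low on array 10, a Cy3 array, and lay between -0.51 and 0.33 on arrays 9 and 11, which carried the null RNA in Cy5. Whether the dye or another trait sets the low arrays apart was not tested.

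Semaphorins did not pass. The 6 tested members, Sema4b, Sema5a, Sema5b, Sema6a, Sema6b and Sema6c, are membrane-spanning guidance cues, with ratios between -0.10 and 0.10. With limma 0 of the 6 had an unadjusted p below 0.05, and the exact sign-flip test called 0, with 1 unadjusted. Sema6c had -0.10 ± 0.05 (adjusted p = 0.136) and was called without array 1, at -0.13 (adjusted p = 0.043). Sema5b had 0.10 ± 0.07 and was called without array 10, at 0.15 (adjusted p = 0.043), and without arrays 3, 4 and 10, at 0.19 (adjusted p = 0.022). Sema6a had -0.09 ± 0.09 and lay at -0.63, -0.49 and -0.66 on arrays 3, 4 and 10. Without these 3 arrays its ratio was 0.09 (adjusted p = 0.182).

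Of the semaphorin receptors, Plxnc1 was lower and Nrp1 higher. Plxnc1, the plexin that reads the membrane-anchored Sema7a, had ratios from -0.85 to 0.0099 with a median of -0.37. It was lowest on array 4 (-0.85) and near 0 on arrays 1 and 8. It fell by 0.34 ± 0.06 (n = 11, adjusted p = 0.0015). Nrp1, the coreceptor of secreted semaphorins and of VEGF, rose by 0.24 ± 0.09 (n = 11, adjusted p = 0.045). Its arrays overlapped 0, with -0.41 on array 4 and values near 0 on arrays 3 and 10. The Nrp1 call was lost when any single array other than 3, 4 or 10 was left out (adjusted p from 0.054 to 0.114). Without those 3 arrays together it was 0.41 (adjusted p = 0.00034).

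The other 3 tested plexins, of classes A and B, did not pass. Plxna3 had 0.21 ± 0.09 (adjusted p = 0.106), and without array 4 it was called at 0.27 (adjusted p = 0.030). It was called at 0.39 without arrays 3, 4 and 10 (adjusted p = 0.00083). Plxna2 had -0.02 ± 0.06 and Plxnb3 0.0013 ± 0.046.

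Netrins and their receptors showed small differences. Ntn3, a secreted netrin, fell by 0.18 ± 0.05 (n = 11, adjusted p = 0.021), was lower on 10 of 11 arrays, and lay at 0.08 on array 9. Its call was lost without array 3 or 5 (adjusted p of 0.053 and 0.054), and without arrays 3, 4 and 10 it was -0.13 (adjusted p = 0.079). Unc5c, a repulsive netrin receptor, rose by 0.16 ± 0.06 (n = 10, adjusted p = 0.046). It was higher on 6 of 10 arrays, with a mean of -0.04 on the Cy3 arrays and 0.37 on the Cy5 arrays. The Unc5c call was lost without array 2, 6, 7, 8, 9, 10 or 11 (adjusted p from 0.068 to 0.141).

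Dcc, the attractive netrin receptor, had -0.02 ± 0.11 (adjusted p = 0.888). It was lowest on arrays 10 (-0.75) and 3 (-0.71) and highest on array 9 (0.50). Without arrays 3, 4 and 10 its ratio was 0.20 (adjusted p = 0.029). Ntn4 had 0.13 ± 0.07 (adjusted p = 0.162). It was negative on array 10 alone, at -0.54, and without that array it was called at 0.18 (adjusted p = 0.012), and without arrays 3, 4 and 10 at 0.14 (adjusted p = 0.029). Ntng1, a netrin relative with a lipid anchor, had 0.0049 ± 0.048.

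Slit2 and Robo1, a secreted repellent and its receptor, rose slightly. Robo1 rose by 0.15 ± 0.04 (n = 11, adjusted p = 0.022) and was higher on 10 of 11 arrays, from -0.11 on array 2 to 0.32 on array 10. Slit2 rose by 0.17 ± 0.05 (n = 11, adjusted p = 0.028), with a mean of 0.03 on the Cy3 arrays and 0.31 on the Cy5 arrays. The Robo1 call was lost without array 5, 7 or 9 (adjusted p from 0.051 to 0.052). That of Slit2 was lost without array 3, 5, 8 or 11 (adjusted p from 0.055 to 0.072). Slit1 had -0.08 ± 0.05 and Slit3 0.04 ± 0.06, and neither passed.

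**Figure D4:**
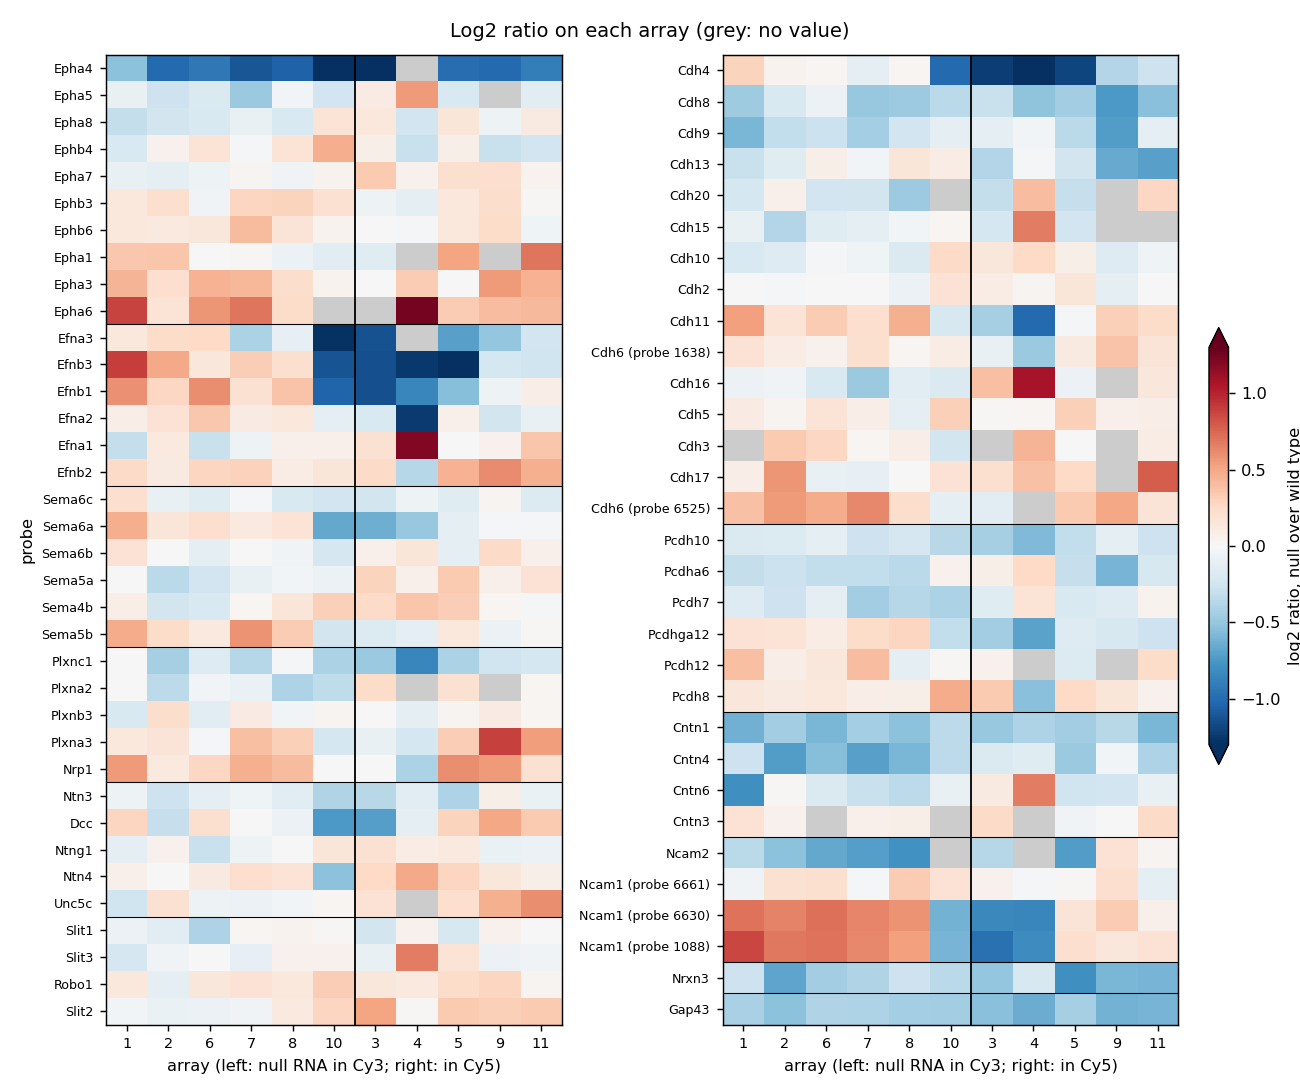
Log2 ratio (colour, null over wild type) of each of the 67 tested probes (rows, by family from Eph receptors to Slit and Robo at left and from cadherins to Gap43 at right) on each array (columns, Cy3 arrays left of the line); grey cells have no value. Gap43, Cntn1, Nrxn3 and Cdh8 are blue on all arrays, while the ephrins and 2 Ncam1 probes change sign between arrays.

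Among 15 cadherin probes for 14 genes, 4 fell (26.7%, against 14% of all tested probes) and 2 rose (13.3%, against 14.7%). The exact sign-flip test called 2 of the 15. Cdh8, a type II cadherin of cortical areas, had ratios from -0.74 to -0.072 with a median of -0.46. Array 9 was the lowest and array 6 the weakest, and Cdh8 fell by 0.43 ± 0.05 (n = 11, adjusted p = 5.9e-05). Cdh9, also of type II, had ratios from -0.73 to -0.035 with a median of -0.28. Its lowest arrays were 9 (-0.73) and 1 (-0.60), and it fell by 0.30 ± 0.06 (n = 11, adjusted p = 0.0032).

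Cdh4, the classical R-cadherin, had ratios from -1.50 to 0.29 with a median of -0.27. Arrays 3, 4, 5 and 10 lay at -1.22, -1.50, -1.20 and -1.01, while arrays 1, 2, 6 and 8 lay above 0. It fell by 0.52 ± 0.13 (n = 11, adjusted p = 0.0077). On the Cy3 arrays alone its ratio was -0.13 (adjusted p = 0.557), and without arrays 3, 4 and 10 it was -0.28 (adjusted p = 0.028). The exact sign-flip test did not call Cdh4 (adjusted p = 0.096).

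Cdh13, a cadherin with a lipid anchor and no cytoplasmic tail, fell by 0.21 ± 0.07 (n = 11, adjusted p = 0.028). Its mean was -0.40 on the Cy5 arrays and -0.02 on the Cy3 arrays. Its call was lost without array 1, 2, 7, 9 or 11 (adjusted p from 0.052 to 0.075). Cdh17, known from the intestine, rose by 0.26 ± 0.08 (n = 10, adjusted p = 0.022). Its highest array was 11 (0.79), and without that array its adjusted p was 0.074.

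Cdh6, a type II cadherin of the lateral cortex, was measured by 2 probes. Probe 6525 rose by 0.29 ± 0.08 (n = 10, adjusted p = 0.017), from -0.14 on array 3 to 0.63 on array 7. Probe 1638 had 0.06 ± 0.06 (n = 11, adjusted p = 0.481), from -0.49 on array 4 to 0.37 on array 9. Over the 10 arrays with both, probe 1638 lay 0.18 ± 0.22 (SD) below probe 6525 and was the higher of the 2 on 2 arrays (exact sign-flip permutation test, two-sided, p = 0.043, adjusted over 4 pairs of probes 0.172). Probe 1638 was called too without arrays 3, 4 and 10, at 0.17 (adjusted p = 0.015), beside 0.40 for probe 6525 (adjusted p = 0.00022). Both means were above 0, and the difference between the probes did not pass.

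The other cadherins did not pass, and their ratios lay between -0.10 (Cdh20) and 0.14 (Cdh3). Cdh2, the N-cadherin of neural progenitors and synapses, had 0.03 ± 0.04, with all arrays between -0.11 and 0.19 (95% interval from -0.06 to 0.11). Cdh5, the cadherin of endothelial cells, had 0.10 ± 0.05 (adjusted p = 0.124). Cdh11 had 0.04 ± 0.11, with array 4 at -1.01, and without arrays 3, 4 and 10 it was called at 0.26 (adjusted p = 0.0034). Cdh15 had -0.03 ± 0.09, and without array 4 it was called at -0.18 (adjusted p = 0.038).

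Protocadherins fell in 3 of 6 tested members (50%, where 14% of all tested probes were called lower). The exact sign-flip test called 1 of the 6. Pcdh10, needed for axon growth through the ventral forebrain, had ratios from -0.57 to -0.13 with a median of -0.27. It was lowest on arrays 4 (-0.57) and 3 (-0.43), and no array reached 0. It fell by 0.28 ± 0.05 (n = 11, adjusted p = 0.00049). Pcdh7 fell by 0.18 ± 0.05 on probe 75 (n = 11, adjusted p = 0.015), while its other probe, 5438, had values on 2 arrays only, of 0.20 and 0.76. Probe 75 had -0.30 on the Cy3 arrays alone (adjusted p = 0.0082) and -0.06 on the Cy5 arrays alone (adjusted p = 0.662). The exact sign-flip test did not call probe 75 (adjusted p = 0.056). Pcdha6, of the clustered alpha protocadherins, fell by 0.21 ± 0.07 (n = 11, adjusted p = 0.040). Arrays 3, 4 and 10 were the ones above 0 for it. The Pcdha6 call was lost when any single array other than those 3 was left out (adjusted p from 0.069 to 0.089). Without those 3 together it was -0.34 (adjusted p = 0.00025). Members of this cluster share sequence, so the probe may also bind its relatives.

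Pcdhga12 had -0.12 ± 0.06 (adjusted p = 0.163), Pcdh12 0.10 ± 0.07 and Pcdh8 0.12 ± 0.07. Pcdh8, regulated by activity in hippocampal neurons, was negative on array 4 alone, at -0.54. Without array 4 it was called at 0.19 (adjusted p = 0.011), and without arrays 3, 4 and 10 at 0.14 (adjusted p = 0.024). For Pcdhga12 the ratio without those 3 arrays was -0.0084 (adjusted p = 0.892).

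Contactins, adhesion proteins of the axon surface with a lipid anchor, fell in 2 of 4 tested members (50%, against 14% of all tested probes). Cntn1 had ratios from -0.63 to -0.34 with a median of -0.46. All 11 arrays lay in this narrow band, and it fell by 0.48 ± 0.04 (n = 11, adjusted p = 1.8e-06). Cntn4 had ratios from -0.72 to -0.036 with a median of -0.40. It was lowest on arrays 2 (-0.72) and 7 (-0.71), and it fell by 0.39 ± 0.06 (n = 11, adjusted p = 0.00021). The mean of Cntn4 was -0.53 on the Cy3 arrays and -0.25 on the Cy5 arrays. Cntn3 had 0.11 ± 0.05 (n = 8) and Cntn6 -0.12 ± 0.09 (n = 11), and neither passed. Without array 4, where it lay at 0.66, Cntn6 was called at -0.20 (adjusted p = 0.049), and without arrays 3, 4 and 10 at -0.26 (adjusted p = 0.017).

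The neural cell adhesion molecules Ncam1 and Ncam2 are immunoglobulin proteins of axons and synapses. Ncam2 had ratios from -0.79 to 0.19 with a median of -0.53. It was above 0 on arrays 9 and 11 and at or below -0.36 on the other 7 that measured it. It fell by 0.41 ± 0.09 (n = 9, adjusted p = 0.0044). The exact sign-flip test did not call it (adjusted p = 0.064).

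Ncam1 did not pass on any of its 3 probes, and the probes disagreed on single arrays. Probe 1088 ranged from -0.97 on array 3 to 0.87 on array 1, and probe 6630 from -0.85 on array 4 to 0.71 on arrays 1 and 6. Probe 6661 stayed between -0.13 and 0.33. The means were alike, at 0.11 ± 0.14, 0.11 ± 0.14 and 0.09 ± 0.05 (n = 11, adjusted p from 0.193 to 0.583). The per-array difference of probes 1088 and 6630 had an SD of 0.10, whereas that of probes 1088 and 6661 had an SD of 0.65. Without arrays 3, 4 and 10, probe 1088 was called at 0.43 (adjusted p = 2.6e-05) and probe 6630 at 0.42 (adjusted p = 2.2e-05), and probe 6661 was not, at 0.08 (adjusted p = 0.262). The sources used here do not say which transcripts of Ncam1 each probe reads.

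Nrxn3, a presynaptic receptor of neuroligins and the neurexin measured here, had ratios from -0.79 to -0.21 with a median of -0.45. Array 5 was the lowest and array 4 the weakest, and Nrxn3 fell by 0.47 ± 0.06 (n = 11, adjusted p = 4.0e-05). Gap43, the growth cone protein that organises actin at the tip of growing axons, had ratios from -0.65 to -0.39 with a median of -0.45. It fell by 0.50 ± 0.04 (n = 11, adjusted p = 4.4e-07), the smallest adjusted p among the 67 probes and 1.42-fold. Both genes lay below 0 on all 11 arrays.

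Proteins that act inside the cell below guidance receptors were read from a list of 43 genes, of which 30 were tested as gene means. Of these 6 fell and 1 rose (23.3%, against 28.9% of all genes tested), with a median of -0.06. Ngef, an exchange factor that binds Epha4, fell by 0.36 ± 0.06, and Tiam1, an exchange factor of Rac, fell by 0.35 ± 0.07. Dpysl2, a collapsin response mediator of semaphorin signals, rose by 0.52 ± 0.10 and was higher on all 11 arrays. Of 8 tested catenins and other partners of cadherins, Ctnnd1 rose by 0.46 ± 0.06 and Ctnna1 by 0.29 ± 0.05, each on all 11 arrays, and the other 6 did not pass. The share of called partners was 25%, near the 28.9% of all genes tested.

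Of 14 tested cues and receptors outside these families, 2 rose, Ptch1 (0.24) and Met (0.19), and 2 fell, Omg (-0.26) and Cdon (-0.22). This is 28.6%, as over all genes tested (28.9%). Among 7 other adhesion molecules of neurons, Icam5, the telencephalin of cortical dendrites, fell by 0.55 ± 0.08, and Dscam fell by 0.40 ± 0.04 on all 11 arrays, which with 5 that did not pass is also 28.6%. The list of growth cone proteins had 8 tested members, of which 3 fell and 1 rose (50%). Sprr1a fell by 0.36 ± 0.04 and the stathmin Stmn3 by 0.35 ± 0.06, each on all 11 arrays, whereas Stmn4 rose by 0.26 ± 0.05.

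Markers of other cells and regions were read in the same comparison, where 28.9% of all genes tested were called. Of 7 tested microglia markers 6 rose (85.7%), with medians of single arrays between 0.56 and 1.05. Laptm5 (1.01) and C1qc (0.88), a subunit of complement, were the highest calls. Astrocyte markers rose in 4 of 8, led by Gfap (1.48) and Apoe (0.95), and Slc1a3 fell (-0.27), with array medians from 0.07 to 0.38 (62.5% called). Meningeal and choroid plexus markers rose in 5 of 9, led by Ogn (0.58) and Col1a1 (0.42), and Folr1 fell (-0.15), with array medians from 0.05 to 0.36 (66.7% called). The highest ratio of this list, that of Ttr (1.505 ± 0.622, higher on 7 of 11 arrays), did not pass with limma (adjusted p = 0.085). Of 8 endothelial and pericyte markers Abcb1a rose (0.23) and Rgs5 fell (-0.31), which at 25% is below the share over all genes (array medians from -0.10 to 0.17). Markers of striatum and thalamus, which lie beneath the neocortex, fell in 4 of 10, led by Ppp1r1b (-0.71) and Zic1 (-0.53), with array medians from -0.42 to -0.06 (40% called). The others of this list did not pass, with ratios from -0.41 (Tcf7l2) to 0.012 (Tac1). Neocortical markers rose in 4 of 8, led by Neurod6 (0.40) and Fezf2 (0.32), with array medians from -0.07 to 0.44 (50% called). The part of these cells in the ratios of guidance and adhesion genes was not tested.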

How the data were processed

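For 11 arrays of embryonic neocortex the authors deposited ratios, read as log2, with a single value for each probe of an array. The sources used here do not state how background was corrected or ratios were normalized, nor their base and direction. No scanner intensities were used, so dim spots could not be removed. Column means lie between -0.0040 and 0.0030, so a shift of all transcripts would not be seen. Spearman correlations over the 55 pairs of arrays had a median of 0.33, and the lowest of 3 below 0 was -0.08.

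Symbols came from the platform annotation (1 symbol for 6269 probes, several for 6, none for 581) and 6250 were updated by Entrez identifier to RefSeq genes of GRCm38.p6. Limma 3.58.1 in R 4.3.3 fitted the mean ratio and a dye term to probes measured on 8 or more arrays, 3 or more in each dye orientation, with Benjamini-Hochberg adjustment, two-sided. The wild-type pool counts as 1 control sample, so its own spread is left out. Gene lists used means of probes per gene. The fit was tested on simulated data.

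Every called gene is named, uncalled ones where the ratio was at least 0.2 in size or the family had at most 6 tested genes, and of each list up to 2 of its lowest calls below 0 and 2 of its highest above 0. A few uncalled genes of the marker lists are named as limits. Members and lists were chosen with earlier results of these data known. The mutated gene is not reported here. Alternatives changed the dye term, arrays used, centring, scaling, weights, probe filter, variances, threshold and test. The number of arrays limits the precision.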

Additional observations from a re-analysis of the deposited data

Results flagged for a closer look

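Cdh15 on array 4 had a log2 ratio of 0.668, far from its other 8 arrays, the next highest of which lay at 0.02. The gap was 0.616 of the whole range of its 9 values, above Dixon's critical value. Of the tested guidance and adhesion probes, 16 with values on 10 or fewer arrays were looked at in this way, and chance alone marks about 1 in 20.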

How the results depend on the processing

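Of the 25 calls, 15 held when any single array was left out, and 6 (Epha4, Gap43, Cntn1, Nrxn3, Cdh8 and Pcdh10) held under every alternative that measured them. With single arrays left out, the higher calls were 4 to 12, the lower calls 13 to 18, and the calls over all tested probes 1202 to 1596. Higher calls numbered 5 on the Cy3 arrays alone, 4 without arrays 1 and 6, 21 without arrays 3, 4 and 10, 15 with array weights, 5 among the 51 probes with values on all 11 arrays, 3 with the exact sign-flip test, and 2 at an adjusted p of 0.01. On the 5 Cy5 arrays alone limma gave 0 higher calls (7 at an unadjusted p below 0.05) and 10 lower, and 454 calls over all tested probes (8.41%). The share of all tested probes called was 20.6% on the Cy3 arrays and 19.4% without arrays 1 and 6. It was 34.4% without arrays 3, 4 and 10, and 34.9% with array weights. The exact sign-flip test gave 10 lower calls and called 20.7% of all tested probes. An adjusted p of 0.01 left 811 calls over all tested probes. The stricter threshold lowers these counts by construction. Leaving out arrays moved them either way, with 12 higher and 18 lower calls without array 4. What moved the counts with array weights or with fewer arrays was not tested. The ratio turned sign under at least 1 alternative for 28 of the 67 probes. For 2 of these the ratio from all arrays or the turned ratio itself was called. Dcc was called at 0.20 without arrays 3, 4 and 10. Unc5c was called at 0.16 with all arrays and turned to -0.037 on the Cy3 arrays (adjusted p = 0.713). Calls under a further alternative are not counted in these 2, such as that of Efnb3 at -0.84 on the Cy5 arrays alone. Centring on the median, equal spread, array weights, robust variances and the looser probe filter lost none of the 25 calls. Among the 51 probes with values on all 11 arrays, 18 of the 25 calls were measured and all 18 were kept. No paired analysis was possible because the 11 null samples form a single group that was set against wild-type RNA on the same array.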
